A study of Homo sapiens with 6 samples.

Results

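The genes described here encode the Integrator complex and the machinery that cleaves and polyadenylates pre-mRNA at its 3′ end. A list of 37 gene symbols was matched to the deposited expression table, and all 37 were found once each among 27420 listed genes. RNA was sequenced from A673 and SKNMC cells, both established Ewing sarcoma cell lines, after 6 h in DMSO (the vehicle) or in THZ1 at 50 or 200 nM, THZ1 being a covalent inhibitor of the transcriptional kinase CDK7. All cultures were grown in DMEM with fetal bovine serum, and the labels give 1 sample for each of the 6 conditions. No replicate error exists within a line, and no statistical test was run. The deposited table is titled as average expression, so whether a value, called a library here, averages several sequencing libraries is not known. The study used THZ1 to ask which transcripts depend most on CDK7 activity, with the low dose chosen for limited and the high dose for substantial loss of RNA polymerase II phosphorylation.

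As background, most mRNAs end where CPSF recognizes the poly(A) signal and its subunit CPSF3 cuts the RNA, helped by CstF, which binds downstream GU-rich sequence, by CF Im, which binds UGUA upstream, and by CF IIm. A poly(A) polymerase then adds the tail, and the exonuclease XRN2 degrades the downstream RNA to release the polymerase. Integrator is related to CPSF in its nuclease, cleaves small nuclear RNAs and enhancer RNAs, and ends transcription early at many protein-coding genes. Replication-dependent histone mRNAs, which carry no tail, use SLBP and a U7 particle that contains LSM10 and LSM11. Many of these factors bind the phosphorylated tail of RNA polymerase II, the substrate of CDK7.

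Expression is given as FPKM, fragments per kilobase of transcript and scaled to the number of mapped fragments. A change is given as a log2 fold change, log2((FPKM + 1) of one library / (FPKM + 1) of the other), so weakly expressed genes appear less changed than they are. A gene was called active in a line where its DMSO value exceeded 1 FPKM, 11077 in A673 and 11896 in SKNMC. All 37 members were active in both lines. Because FPKM values are relative within a library, a change of every transcript by the same factor leaves no trace, and no count of reads was given. The listed FPKM values summed to between 451872 and 462997 per library. With THZ1 between 3 and 6 active genes per library were listed at 0, among them in SKNMC the abundant EEF1A1, so a 0 may be a failed estimate. No member was listed at 0. Across active genes the median log2 fold change was, for 50 and 200 nM, -0.27 and -0.40 in A673 and -0.32 and -0.55 in SKNMC. Scaling libraries to a common 75th percentile raised these medians by 0.22 to 0.48 (log2).

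With DMSO the members were expressed at similar levels in both lines. Their median was 24.5 FPKM in A673 and 26.6 FPKM in SKNMC, against 14.1 and 13.5 FPKM for all active genes. The lowest was LSM11, at 2.0 FPKM in A673 and 3.94 FPKM in SKNMC. The highest was PABPN1, the nuclear poly(A)-binding protein, at 91.0 and 99.9 FPKM. None of the 37 differed 2-fold between the lines, against 15.9% of the 10574 genes active in both. The log2 differences (A673 minus SKNMC) ranged from -0.83 for FIP1L1 to 0.53 for NUDT21, and FIP1L1, LSM11 (-0.72) and PCF11 (-0.70) were over 1.5-fold apart. Of all members, 34 lay within 1.5-fold of each other in the 2 lines. Every neighbouring pair in the order of levels rests on 1 library, so small gaps in that order have no known error.

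With THZ1, the members divided into a set that was strongly lower, a set near its DMSO level and a few that were higher at the low dose. At 50 nM, 11 of 37 were at least 2-fold lower in A673 (29.7%, against 15.9% of all active genes), and 10 of 37 in SKNMC (27.0%, against 15.8%). At 200 nM, 14 of 37 were at least 2-fold lower in A673 (37.8%, against 25.3%) and 15 of 37 in SKNMC (40.5%, against 27.3%). The 2 lines share no library, and 7 members passed this threshold in both at 50 nM, against 11.4% of the genes active in both lines. These 7, or 18.9% of the members, were INTS2, INTS5, INTS6, CPSF2, CSTF1, CSTF2T and LSM10. At 200 nM, 12 members (32.4%, against 20.4%) passed it in both, namely INTS5, INTS7, INTS9, INTS12, CPSF4, FIP1L1, WDR33, CSTF1, CSTF2T, CLP1, PAPOLG and LSM10. A 2-fold higher value was found once, for RBBP6 in A673 at 50 nM, where 0.343% of active genes passed. No member was 2-fold higher in A673 at 200 nM (background 0.126%) or in SKNMC at 50 nM (0.471%) or 200 nM (0.462%). In A673 the median member had a log2 fold change of -0.56 (50 nM) and -0.49 (200 nM), and in SKNMC of -0.54 and -0.88. After division by the 75th percentile, 7 of 37 were 2-fold lower at 200 nM in A673 (18.9%), near the 17.3% of active genes. In SKNMC 8 of 37 were, against 13.4% of active genes.

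**Figure D1:**
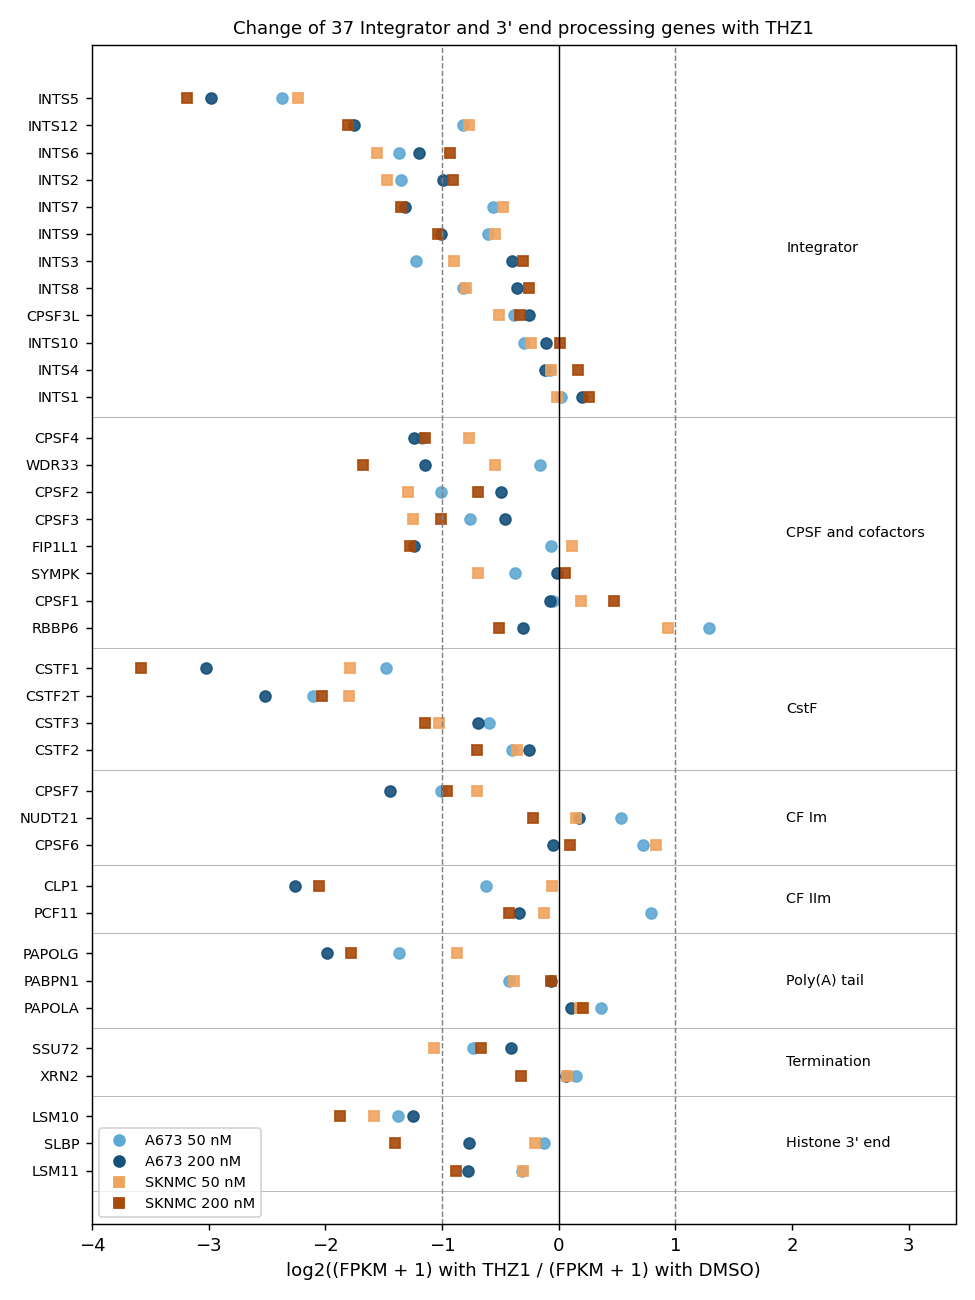
Log2 fold change of FPKM + 1, THZ1 over DMSO within a line (x axis), for the 37 members (y axis), grouped by role; each symbol is 1 library (circles A673, squares SKNMC, light 50 nM, dark 200 nM) and the dashed lines mark a 2-fold change. INTS5, CSTF1, CSTF2T and LSM10 lie left of the 2-fold line in all 4 THZ1 libraries, and RBBP6 and CPSF6 lie right of 0 at 50 nM in both lines.

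Within Integrator, the subunits differed widely from each other. INTS5, a core subunit, stood farthest from its DMSO level. This gene, ENSG00000185085 on the minus strand at chr11:62414320-62420774 (hg19), was at 13.1 FPKM (DMSO), 1.73 (50 nM) and 0.779 (200 nM) in A673. In SKNMC it was at 17.1, 2.86 and 0.995 FPKM. All 4 THZ1 values lay far below both DMSO values, with log2 fold changes of -2.37 and -2.98 in A673 and of -2.23 and -3.18 in SKNMC. Between 0.0672% and 0.504% of active genes had a log2 fold change as low or lower in a given library.

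INTS2 and INTS6 were lower at 50 nM than at 200 nM. INTS2 was at 8.40 FPKM (DMSO), 2.68 (50 nM) and 3.74 (200 nM) in A673, and at 7.47, 2.05 and 3.52 FPKM in SKNMC. INTS6, a von Willebrand-type domain subunit that binds the phosphatase PP2A, was at 29.6, 10.8 and 12.3 FPKM in A673 and at 27.3, 8.60 and 13.8 FPKM in SKNMC. Both subunits were thus lowest in the low-dose library of each line. INTS3 and INTS8 had the same order of doses. INTS3, which also belongs to the single-strand DNA-binding SOSS complex, was at 12.4, 4.74 and 9.12 FPKM in A673 and at 18.2, 9.36 and 14.6 FPKM in SKNMC. INTS8, another PP2A-binding subunit, was at 26.2, 14.4 and 20.2 FPKM in A673 and at 25.1, 14 and 20.9 FPKM in SKNMC.

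Other subunits were lower at the high dose. INTS7 was at 23.3 FPKM (DMSO), 15.4 (50 nM) and 8.73 (200 nM) in A673, and at 23.0, 16.2 and 8.40 FPKM in SKNMC. INTS12, a small PHD-finger subunit, was at 17.7, 9.60 and 4.55 FPKM in A673 and at 18.0, 10.2 and 4.44 FPKM in SKNMC. INTS9, the inactive partner of the Integrator nuclease, was at 8.43, 5.21 and 3.67 FPKM in A673 and at 6.95, 4.46 and 2.89 FPKM in SKNMC. For each of these 3 genes the values of the lines were close to each other and were lower at each higher dose. The nuclease itself, CPSF3L (also called INTS11), was at 51.7, 39.5 and 43.1 FPKM in A673 and at 67.5, 47.1 and 53.5 FPKM in SKNMC.

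The large scaffold subunit INTS1 was at 27.3, 27.8 and 31.5 FPKM in A673 and at 31.1, 30.8 and 37.5 FPKM in SKNMC. Its log2 fold changes lay between -0.012 and 0.26 as deposited, between 0.27 and 0.82 when scaled to the 75th percentile, and between -0.41 and -0.14 when scaled to ribosomal protein genes. INTS4, the scaffold of the cleavage module, had log2 fold changes between -0.12 and 0.17, and INTS10 between -0.29 and 0.012. The summed FPKM of the 12 subunits in A673 was 249 (DMSO), 159 (50 nM) and 166 (200 nM), and in SKNMC it was 272, 172 and 192. In A673 their median log2 fold change was -0.71 (50 nM) and -0.69 (200 nM), and in SKNMC -0.66 and -0.62.

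In CPSF, the complex that finds the poly(A) signal, WDR33 and CPSF4, which both touch the signal's bases, were low at 200 nM. WDR33 was at 16.7 FPKM (DMSO), 14.8 (50 nM) and 7.03 (200 nM) in A673, and at 20.6, 13.8 and 5.77 FPKM in SKNMC. CPSF4 was at 23.0, 9.64 and 9.18 FPKM in A673 and at 26.6, 15.2 and 11.4 FPKM in SKNMC. FIP1L1, which recruits the poly(A) polymerase, was at 14.8, 14 and 5.67 FPKM in A673 and at 27.0, 29.3 and 10.6 FPKM in SKNMC. For FIP1L1 the 50 nM library was close to DMSO in both lines, and the whole difference lay at 200 nM, with log2 fold changes of -1.24 and -1.27.

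The nuclease CPSF3 and its inactive partner CPSF2 had the reverse order. CPSF2 was at 32.5 FPKM (DMSO), 15.7 (50 nM) and 22.8 (200 nM) in A673, and at 25.2, 9.66 and 15.2 FPKM in SKNMC. CPSF3 was at 36.7, 21.3 and 26.4 FPKM in A673 and at 27.8, 11.1 and 13.3 FPKM in SKNMC. Both were lowest at 50 nM in each line. SYMPK, the scaffold that holds these 2 proteins, was at 18.4, 13.9 and 18.2 FPKM in A673 and at 14.9, 8.80 and 15.5 FPKM in SKNMC. CPSF1, the largest CPSF subunit, had log2 fold changes of -0.049 and -0.076 in A673 and of 0.19 and 0.47 in SKNMC, all above 0 when scaled to the 75th percentile and all below 0 when scaled to ribosomal protein genes.

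RBBP6, a ubiquitin ligase that activates the CPSF nuclease, was the member with the highest log2 fold change. This gene, on the plus strand at chr16:24549014-24584184 (hg19), was at 28.1 FPKM (DMSO), 70.0 (50 nM) and 22.5 (200 nM) in A673. In SKNMC it was at 30.2, 58.7 and 20.8 FPKM. The 50 nM libraries were the high ones in both lines, with log2 fold changes of 1.29 and 0.94, at the 99.9th and 99.4th percentiles of active genes. At 200 nM the log2 fold changes were -0.31 and -0.51, and both were above 0 after division by the 75th percentile.

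CstF was the group with the lowest medians at the high dose, -1.60 in A673 and -1.59 in SKNMC over its 4 genes (log2 fold change). Its genes were widely spread, from -3.02 to -0.25 in A673 and from -3.58 to -0.70 in SKNMC. CSTF1, the WD-repeat subunit, lies on the plus strand at chr20:54967427-54979518 (hg19). It was at 24.5 FPKM (DMSO), 8.16 (50 nM) and 2.14 (200 nM) in A673, and at 30.3, 8.05 and 1.61 FPKM in SKNMC. All 4 THZ1 values lay below both DMSO values, and the 200 nM values were lowest in both lines, with log2 fold changes of -3.02 and -3.58 at 200 nM. In SKNMC, 0.0252% of active genes, CSTF1 among them, were as low or lower.

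CSTF2T is an intronless retrocopy of CSTF2, and both encode the subunit that binds the RNA. The retrocopy, on the minus strand at chr10:53455247-53459355 (hg19), was at 12.4 FPKM (DMSO), 2.11 (50 nM) and 1.35 (200 nM) in A673, and at 11.8, 2.67 and 2.13 FPKM in SKNMC. CSTF2, on the X chromosome, was at 16.5, 12.3 and 13.7 FPKM in A673 and at 17.7, 13.6 and 10.5 FPKM in SKNMC. The paralogs therefore differed in each line, with log2 fold changes between -1.80 and -2.51 for CSTF2T and between -0.25 and -0.70 for CSTF2. Reads that fit both copies may have been split between them by the counting, and how they were treated is not given in the sources used here. CSTF3, the subunit that bridges the others, had log2 fold changes of -0.60 and -0.69 in A673 and of -1.02 and -1.14 in SKNMC.

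CF Im, which sets the choice between alternative poly(A) sites, had members on opposite sides of their DMSO levels at the low dose. CPSF6, on the plus strand at chr12:69633317-69668138 (hg19), was at 57.8 FPKM (DMSO), 95.8 (50 nM) and 56.0 (200 nM) in A673, and at 59.3, 107 and 63.4 FPKM in SKNMC. Its paralog CPSF7 was at 52.1, 25.4 and 18.5 FPKM in A673 and at 63.1, 38.5 and 31.9 FPKM in SKNMC. The 2 paralogs began at like levels and were 3.77-fold apart at 50 nM in A673 and 2.77-fold apart in SKNMC. NUDT21, the RNA-binding subunit that pairs with either, was at 70.8 FPKM with DMSO in A673 and at 48.6 FPKM in SKNMC, with log2 fold changes of 0.54 and 0.17 in A673 and of 0.15 and -0.22 in SKNMC.

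CF IIm consists of PCF11 and CLP1. CLP1, an RNA kinase, was at 14.8 FPKM (DMSO), 9.28 (50 nM) and 2.30 (200 nM) in A673, and at 16.1, 15.4 and 3.10 FPKM in SKNMC. The 200 nM libraries stood apart from the other 4, with log2 fold changes of -2.26 and -2.06. PCF11, which binds the polymerase tail, was at 10.8, 19.3 and 8.32 FPKM in A673 and at 18.2, 16.6 and 13.3 FPKM in SKNMC, with log2 fold changes at 50 nM of 0.79 in A673 and -0.13 in SKNMC, the latter above 0 after division by the 75th percentile. That difference between the lines was not tested.

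The poly(A) polymerases differed from each other. PAPOLA, the main enzyme, was at 83.8, 108 and 90.3 FPKM in A673 and at 80.3, 91.3 and 92.8 FPKM in SKNMC. PAPOLG, a related polymerase expressed at a lower level, was at 5.74, 1.62 and 0.702 FPKM in A673 and at 7.10, 3.42 and 1.36 FPKM in SKNMC. PAPOLA was slightly above DMSO in every THZ1 library, by log2 fold changes between 0.11 and 0.37, and with ribosomal protein genes as the scale it was below DMSO in 3 of the 4. PAPOLG was below it in every THZ1 library, by log2 fold changes between -0.87 and -1.99. PABPN1 lay between -0.43 and -0.068.

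Among the factors that act after cleavage, XRN2, the exonuclease that chases the polymerase, was at 70.4, 77.9 and 73.3 FPKM in A673 and at 92.8, 97.7 and 73.9 FPKM in SKNMC. SSU72, a phosphatase of the polymerase tail, was at 89.2, 53.3 and 66.7 FPKM in A673 and at 87.2, 41.1 and 54.7 FPKM in SKNMC. SSU72 was lowest at 50 nM in both lines, and the log2 fold changes of XRN2 lay between -0.33 and 0.14. XRN2 was above DMSO in all 4 THZ1 libraries when scaled to the 75th percentile, by up to 0.43 (log2), and below it in all 4 when scaled to ribosomal protein genes, down to -0.92.

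Of the histone pre-mRNA factors, LSM10 was low at both doses. This gene, on the minus strand at chr1:36856839-36863493 (hg19), was at 32.9 FPKM (DMSO), 12 (50 nM) and 13.3 (200 nM) in A673, and at 38.2, 12.1 and 9.66 FPKM in SKNMC. SLBP, the stem-loop binding protein, was at 69.5, 63.6 and 40.3 FPKM in A673 and at 76.4, 66.1 and 28.2 FPKM in SKNMC. LSM11 was at 2.0, 1.42 and 0.747 FPKM in A673 and at 3.94, 2.99 and 1.69 FPKM in SKNMC. LSM10 was near its lowest level already at 50 nM, whereas SLBP and LSM11 were lower at 200 nM in both lines.

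**Figure D2:**
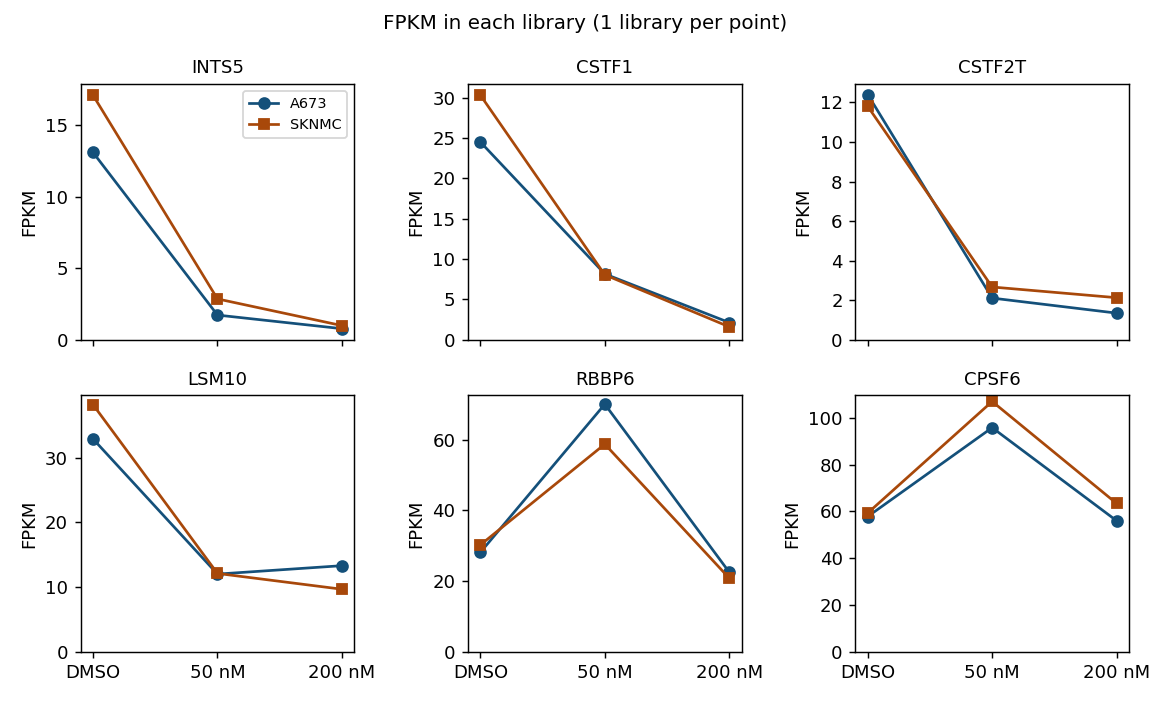
FPKM (y axis, from 0) with DMSO, 50 nM and 200 nM THZ1 (x axis) for 6 members; each point is 1 library, circles for A673 and squares for SKNMC, and lines join the libraries of a line. INTS5, CSTF1, CSTF2T and LSM10 are lower at 50 nM than with DMSO in both lines, and RBBP6 and CPSF6 are highest at 50 nM.

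The step from 50 nM to 200 nM was compared on its own, since its ratio uses no DMSO library. The DMSO libraries still set which genes count as active. Of the 37 members, 20 were lower at 200 nM than at 50 nM in both lines (54.1%, against 45.7% of the genes active in both), and 12 were higher in both (32.4%, against 30.0%). These shares are near the background. A 2-fold lower value in both lines was found for FIP1L1, RBBP6, CSTF1 and CLP1 (10.8%, against 5.22%). The log2 differences of CLP1 were -1.64 in A673 and -2.0 in SKNMC, those of RBBP6 -1.59 and -1.45, those of CSTF1 -1.55 and -1.79, and those of FIP1L1 -1.17 and -1.39. The 12 that were higher at 200 nM included INTS1, INTS2, INTS3, INTS6, INTS8, INTS10 and CPSF3L, 7 of the 12 Integrator genes, with CPSF2, CPSF3, SYMPK, PABPN1 and SSU72. The Integrator count was made after the values were seen, and beside it stands the same 30.0% of genes active in both lines. Some of its log2 differences were small, such as 0.13 and 0.18 for CPSF3L in A673 and SKNMC. Among the members higher at 200 nM, INTS3 had the largest log2 difference in A673, 0.82, and SYMPK in SKNMC, 0.75. Across the 37 members, which share their libraries and are not replicates, the Spearman correlation of this step between the lines was 0.92, and it was 0.76 across the 10574 genes active in both. After division by the 75th percentile, 16 members were lower and 15 higher in both lines, against 34.4% and 46.5% of those genes.

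**Figure D3:**
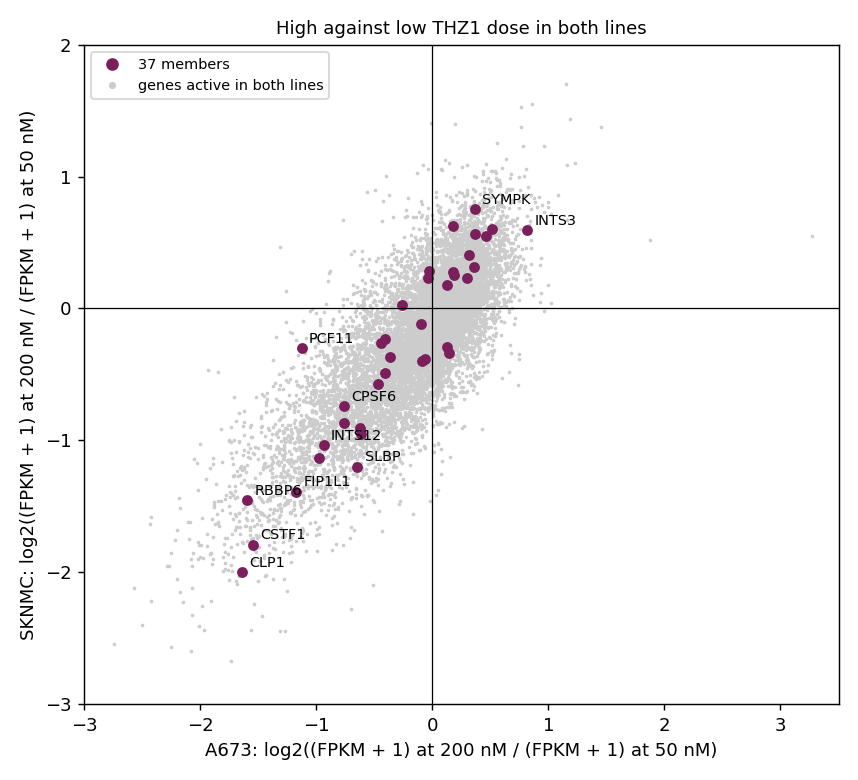
Log2 ratio of FPKM + 1 at 200 nM to that at 50 nM in A673 (x axis) and in SKNMC (y axis); large points are the 37 members, small grey points the genes active in both lines. CLP1, CSTF1, RBBP6 and FIP1L1 lie at the lower left, and INTS3 and SYMPK at the upper right.

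Other genes of the same pathways were listed as later Integrator subunits, phosphatase partners of CPSF, factors that bind the polymerase tail, histone 3′ end factors, cap-binding factors and tail enzymes. Of 38, 37 were found, and CASP8AP2 was not matched. At 50 nM, 10 of the 37 were at least 2-fold lower in A673 (27.0%) and 8 in SKNMC (21.6%), and at 200 nM 17 (45.9%) and 14 (37.8%). Beside these shares stand 15.9% and 15.8% of all active genes at 50 nM, and 25.3% and 27.3% at 200 nM. None was 2-fold higher. Among those 2-fold lower at 50 nM in both lines were VWA9, NABP1, PPP1R10, ZNF473, NPAT and ZC3H18. PPP1R10, which targets protein phosphatase 1 to the polymerase during termination, was at 17.2 FPKM (DMSO), 3.10 (50 nM) and 6.45 (200 nM) in A673, and at 21.1, 1.57 and 6.54 FPKM in SKNMC. VWA9 (INTS14) was at 21.8, 7.58 and 8.79 FPKM in A673 and at 27.1, 8.57 and 7.49 FPKM in SKNMC. NPAT and ZNF473, both needed for histone transcripts, had log2 fold changes between -1.13 and -2.33. NABP1, an INTS3 partner, had log2 fold changes between -0.94 and -1.82, and ZC3H18, a cap-complex adaptor, between -1.13 and -1.81.

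From the genes listed here, 6 with a domain that binds the polymerase tail as PCF11 does were set side by side after their values were seen. They were PCF11, SCAF4, SCAF8, RPRD1A, RPRD1B and RPRD2, and no full list of genes with this domain was searched. As the choice followed the values, the counts below describe these 6 and not such genes in general. At 50 nM 5 of the 6 were above DMSO in both lines, against 21.3% of the genes active in both. RPRD1A, counted among these, was nearly unchanged in SKNMC, at 53.7 FPKM (DMSO) and 54 (50 nM). With ribosomal protein genes as the scale 4 of the 6 were above DMSO (4.66% of the genes active in both), and with the 75th percentile all 6 (38.5%). Their log2 fold changes at 50 nM ranged from 0.56 to 0.93 in A673 and from -0.13 to 0.77 in SKNMC. At 200 nM they ranged from -1.08 to 0.37 and from -1.18 to 0.034. All 6 were lower at 200 nM than at 50 nM in A673 and 5 in SKNMC, with RPRD1A as the exception.

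Gene structure was compared with these changes, as the list did not use it. Exon numbers are those of the canonical GENCODE 44 transcript on GRCh37. CSTF2T has 1 exon, INTS5 and LSM10 have 2, and these 3 were at least 2-fold lower in each THZ1 library. Active genes with 1 or 2 exons also had low median log2 fold changes, -0.71 (50 nM) and -1.0 (200 nM) in A673 and -0.61 and -0.91 in SKNMC, against -0.21, -0.33, -0.24 and -0.44 for genes with over 10 exons. Of active genes with 1 or 2 exons, 34.3% were 2-fold lower at 50 nM in A673 and 49.9% at 200 nM, and 31.8% and 45.0% in SKNMC. CLP1, with 3 exons, and CSTF1, with 6, were lower at 200 nM than the median of their ranges. NUDT21 and PABPN1, with 7 exons each, and CPSF6, with 10, were above the median of theirs in both lines. Across the 37 members the Spearman correlation of exon number with the log2 fold change was 0.32 (50 nM) and 0.47 (200 nM) in A673, and 0.26 and 0.53 in SKNMC. Across all active genes with a transcript it was between 0.12 and 0.18. With the DMSO level in place of exon number, the correlation over the members was 0.28 (50 nM) and 0.45 (200 nM) in A673. In SKNMC it was 0.255 and 0.29, and across all active genes it lay between 0.070 and 0.21. The transcripts with few exons were not otherwise matched, and what sets the relation to exon number was not tested.

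**Figure D4:**
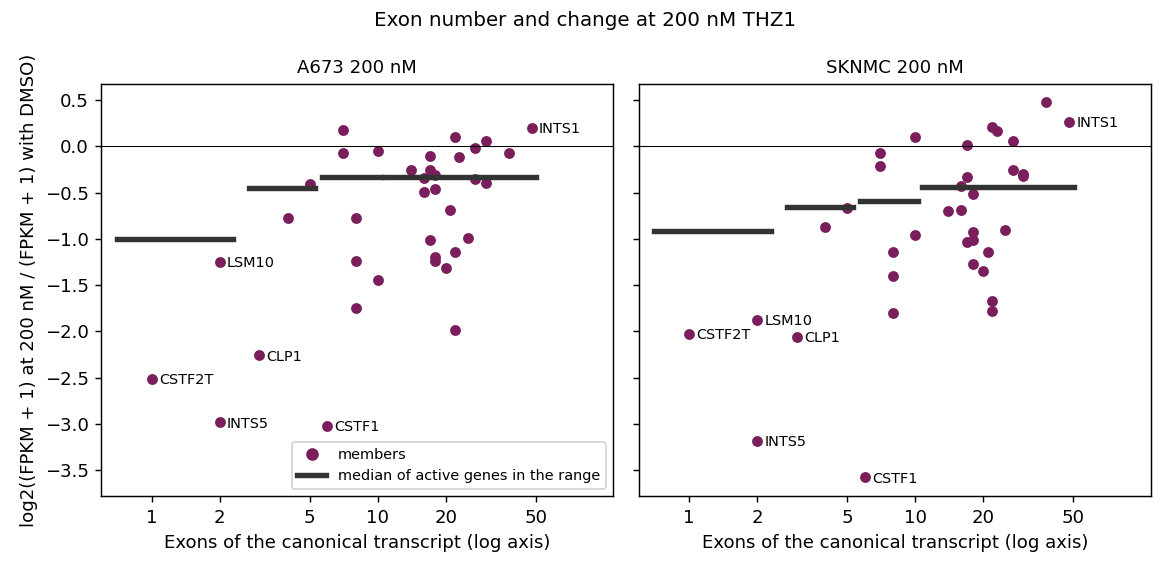
Log2 fold change at 200 nM THZ1 (y axis) against the number of exons of the canonical transcript (x axis, log scale) in A673 (left) and SKNMC (right); points are the 37 members and bars the medians of active genes with 1 or 2, 3 to 5, 6 to 10 and over 10 exons. INTS5, CSTF2T, LSM10, CLP1 and CSTF1 lie below the bars of their ranges. NUDT21, CPSF6 and PABPN1 lie above the bar of 6 to 10 exons in both lines.

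The promoters of a pair that was lower with THZ1 (CSTF1, CSTF2T) and of a pair that was higher at 50 nM (RBBP6, CPSF6) are shown for comparison, as the 250 bases before the RefSeq start, 5′ to 3′ on the strand of the gene, from the RefSeq promoter table (GRCh38.p14). Capitals mark matches, on either strand, to the letters searched. For CSTF1, which has 2 starts in the table, the first is shown. The windows lie at chr20:56392129-56392378 (plus), chr10:51699596-51699845 (minus), chr16:24539316-24539565 (plus) and chr12:69239319-69239568 (plus).
CSTF1: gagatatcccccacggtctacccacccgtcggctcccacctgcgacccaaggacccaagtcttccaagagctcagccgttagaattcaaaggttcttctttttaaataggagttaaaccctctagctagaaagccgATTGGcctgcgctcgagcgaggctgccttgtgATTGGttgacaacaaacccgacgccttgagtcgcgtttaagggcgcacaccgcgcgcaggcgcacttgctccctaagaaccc
CSTF2T: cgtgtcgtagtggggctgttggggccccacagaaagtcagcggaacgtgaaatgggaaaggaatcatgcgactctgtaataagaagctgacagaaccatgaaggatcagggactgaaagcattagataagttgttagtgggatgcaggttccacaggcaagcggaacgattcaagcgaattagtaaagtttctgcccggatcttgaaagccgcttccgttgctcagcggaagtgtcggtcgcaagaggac
RBBP6: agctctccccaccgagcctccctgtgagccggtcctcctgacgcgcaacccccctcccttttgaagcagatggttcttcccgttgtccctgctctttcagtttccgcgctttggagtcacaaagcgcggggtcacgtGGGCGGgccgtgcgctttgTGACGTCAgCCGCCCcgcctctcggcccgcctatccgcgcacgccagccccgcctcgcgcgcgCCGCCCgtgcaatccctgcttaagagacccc
CPSF6: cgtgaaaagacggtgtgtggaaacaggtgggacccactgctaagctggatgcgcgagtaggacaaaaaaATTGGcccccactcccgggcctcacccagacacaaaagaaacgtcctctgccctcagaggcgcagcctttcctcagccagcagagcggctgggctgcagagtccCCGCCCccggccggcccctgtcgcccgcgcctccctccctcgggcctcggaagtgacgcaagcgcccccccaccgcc

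The window of CSTF1 holds CCAAT matches on the other strand (its second start has YY1 and CRE matches), that of RBBP6 GC boxes and a CRE, that of CPSF6 a CCAAT match and a GC box, and that of CSTF2T none of the letters searched. GC content was 56.0% for CSTF1, 50.8% for CSTF2T, 68.0% for RBBP6 and 66.8% for CPSF6. These genes were picked by their response, and a relation of GC content to response was not tested. Of the other members 2-fold lower at the low dose in both lines, INTS2 had 52%, CPSF2 56%, LSM10 59.2% and INTS6 66%. Of the others higher at that dose in both lines, NUDT21 had 59.6%, PAPOLA 70.4% and XRN2 72%. Members 2-fold lower in both lines at the high dose ranged from 50.8% (CSTF2T) to 71.6% (CPSF4), where a promoter was found. RefSeq promoters were found for 32 members, the others being CPSF1, INTS5, INTS8, INTS9 and INTS10. Counted over every start of a gene in the table, TATAAA was found in none, against 13.0% of 27305 genes. Those 27305 genes were not filtered for activity, whereas all members were active in both lines. The ETS core CCGGAAG was found in 9 (28.1%, against 10.2%), the GC box GGGCGG in 22 (68.8%, against 46.2%), CCAAT in 13 (40.6%, against 37.0%) and the CRE TGACGTCA in 5 (15.6%, against 2.03%). GGAAGGAA, a repeat of the core bound by EWS-FLI1, was found in 2 (6.25%, against 3.76%) and AAGATGGC, the YY1 motif, in 1 (3.12%, against 1.64%). The NRF1 motif was found in none (against 1.28%). The ETS core and the GGAA repeat can overlap. Median GC content was 63.8% over the members and 58.0% over all genes, and the median number of CpG dinucleotides was 21.5 and 11. Whether active genes in general have shares like those of the members was not tested. A match in these windows is a description, not a binding site.

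Reads of overlapping genes limit some values, as the use of strand in counting is not given in the sources used here. In GENCODE 44, 25.7% of the exon bases of WDR33 overlap SFT2D3 on the other strand, 20.7% of those of INTS8 overlap CCNE2, and 15.2% of those of PCF11 overlap its antisense RNA. FIP1L1 is listed over 917630 bases. Of its exon bases, 14.6% overlap LNX1 on the other strand and 7.81% ENSG00000282278 on the same strand. Its values, with the gap between the lines and the low 200 nM values, may thus include reads of other genes. On the same strand, NUDT21 shares 45.9% of its exon bases with ENSG00000288725, and PABPN1 shares 39.3% with the readthrough gene BCL2L2-PABPN1. Per the methods, FPKM was computed on Ensembl 75 and not on GENCODE 44. Whether the overlapping genes named here were in that annotation was not checked, so the effect on the values of such pairs is uncertain.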

How the data were processed

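Total RNA of A673 and SKNMC cells (also spelled SKMNC in the labels) was sequenced as 100-base paired-end reads. Per the methods, the authors aligned reads to hg19 with STAR and computed FPKM with StringTie on Ensembl 75, while the submitters' processing notes name STAR and Cufflinks. The deposited FPKM table has 6 library columns, all used. Its 4 columns of the authors' log2 fold changes were not used.

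From the FPKM values, log2((FPKM + 1)/(FPKM + 1)) was computed with pandas 2.3.3 on all genes and checked on simulated data. Active genes exceeded 1 FPKM with DMSO, and 2-fold was the threshold. With 1 sample per condition no test was run. Depth is unknown: at most 3.59% of low genes shared 1 ratio to DMSO, so reads could not be recovered. Members and lists were chosen with earlier results of these data known. Members named in full were, within each role, those 2-fold changed in both lines at a dose and those with the lowest and highest mean log2 fold change. INTS3, INTS8, CPSF3L, CPSF3, SYMPK and SLBP were added beside them after their values were seen. Deposited starts count from 0 and are given here plus 1. Alternatives were another pseudocount, 3 other scalings, filters and a 1.5-fold threshold. The values of 1 other pathway gene are not reported here.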

Additional observations from a re-analysis of the deposited data

Results flagged for a closer look

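CPSF1 was on opposite sides of DMSO in the 2 lines. In A673 its log2 fold changes were -0.0495 (50 nM) and -0.0761 (200 nM), whereas in SKNMC they were 0.1929 and 0.4748. With 1 sample per condition, this difference was not tested. The opposite signs depend on the scale. Scaled to the 75th percentile, the 4 values were 0.20 and 0.29 in A673 and 0.48 and 1.04 in SKNMC, all above 0. Scaled to ribosomal protein genes, they were -0.28 and -0.42 in A673 and -0.21 and -0.12 in SKNMC, all below 0.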

How the results depend on the processing

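With libraries scaled to a common 75th percentile, the median of all active genes shifted by 0.22, 0.32, 0.25 and 0.48 (log2; A673 50 and 200 nM, then SKNMC 50 and 200 nM). The median member was then at -0.32, -0.13, -0.27 and -0.39, members 2-fold lower at 200 nM numbered 7 in A673 and 8 in SKNMC (6 in both lines), and members 2-fold higher 2 at 50 nM in each line and 1 at 200 nM in SKNMC. Of active genes, 17.3% and 13.4% were then 2-fold lower at 200 nM (10.8% in both lines), and 0.767%, 1.24% and 4.33% 2-fold higher. Scaled to 83 ribosomal protein genes, all active genes shifted by -0.19, -0.29, -0.34 and -0.47, the median member was at -0.78, -0.83, -0.91 and -1.25, and 17 and 23 members were 2-fold lower at 50 and 200 nM in SKNMC, 13 at 50 nM in both lines, against 28.0%, 51.1% and 18.2% of active genes. Above 10 FPKM, the median was -0.43 at 50 nM in A673 and -0.69 at 200 nM in SKNMC. At 1.5-fold, 18 and 17 members were lower at 50 nM in A673 and SKNMC (16 in both), 3 and 2 were higher, and 3 differed between the lines with DMSO. The shares of active genes were 31.8% and 33.5% (25.1% in both) lower, 1.78% and 2.43% higher, and 36.9% different. Of 100 values of the 25 members named by the rule, 12 changed sign under the 75th percentile and 11 under ribosomal scaling, and 15 of 45 2-fold values were lost under the former. Counts over both lines were added after seeing the data. Within a line no paired analysis was possible, as there was 1 sample a condition and there were no replicate numbers to block on. A fit over both lines with the line as a block was not run. Depth is unknown, so the error of low values such as INTS5 at 200 nM cannot be given.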
